A study of Mus musculus with 4 samples.

Results

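Genes of blood vessel endothelium and of leukocyte adhesion were followed in cells labelled as endothelium of collecting lymphatic vessels. The set held 10 genes, Selp, Sele, Icam1, Vcam1, Cd34, Vwf, Plvap, Ackr1, Esm1 and Apln, out of 18193 genes that the array could name. Every probe set annotated to exactly 1 of these symbols was kept, which gave 14 of the 45101 probe sets. The probe set with the highest mean signal over all arrays stood for its gene. The vessels drained flank tumours of about 2000 mm3 that had grown from human 293EBNA cells, a kidney-derived line, in mice whose strain, sex and age were not given in the sources used here. In the VEGFD group (2 arrays) the tumour cells carried the Apex vector with VEGFD, which encodes the secreted growth factor VEGF-D, and in the Apex group (2 arrays) they carried the empty vector. All 4 arrays therefore came from tumour-bearing animals, and none from an animal without a tumour. The vessels were found by a blue dye given into the tumour and dissected, and endothelial cells were then enriched by magnetic sorting. The extraction protocol names lymph node endothelial cells instead. Whether a replicate was 1 mouse or a pool is not stated, so p-values measure the spread between these samples.

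Leukocytes leave the blood by a sequence of steps on the vessel wall. P-selectin (Selp) and E-selectin (Sele) catch passing cells, and ICAM-1 (Icam1) and VCAM-1 (Vcam1) then hold them through integrins. P-selectin is stored with von Willebrand factor (Vwf) in the Weibel-Palade bodies of endothelial cells, and both are also present in platelets. PLVAP forms the diaphragms of caveolae and fenestrae, ACKR1 carries chemokines across venules, and ESM1 and apelin (Apln) are known from the tip cells of growing blood vessels. CD34 is a sialomucin of blood capillaries that fibroblasts and precursor cells of connective tissue also carry, and ICAM-1 and VCAM-1 are likewise made by fibroblasts under inflammatory signals.

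Upstream sequences are shown for 4 genes that stand for 3 patterns described below: Selp and Esm1, with most of their signal on 1 array, Icam1, far above the filter on every array, and Sele, dim on every array. Each is the 250 bases before the transcript start in RefSeq, build GRCm38.p6, printed 5′ to 3′ in the direction of the gene. Capitals mark matches on either strand to any of 5 motifs. These were a kappaB-type spacing (GGG, any 5 bases, then CC), the AP-1 letters TGANTCA, the letters AGATAA that GATA factors bind, the core ACGTG of hypoxia response elements and the letters TATAAA of a TATA box. No motif overlapped another in these windows.
Selp (chr1:164115014-164115263, + strand): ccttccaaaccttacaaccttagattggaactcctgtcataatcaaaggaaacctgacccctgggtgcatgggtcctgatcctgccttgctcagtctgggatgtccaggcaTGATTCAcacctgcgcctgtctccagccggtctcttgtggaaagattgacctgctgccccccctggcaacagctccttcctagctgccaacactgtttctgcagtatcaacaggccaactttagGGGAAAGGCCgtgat
Esm1 (chr13:113209409-113209658, + strand): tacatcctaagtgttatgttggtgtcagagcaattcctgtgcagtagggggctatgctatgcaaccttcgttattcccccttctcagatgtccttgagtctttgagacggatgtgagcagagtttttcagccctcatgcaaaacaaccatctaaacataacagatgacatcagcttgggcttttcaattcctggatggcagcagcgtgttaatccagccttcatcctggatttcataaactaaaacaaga
Icam1 (chr9:21015690-21015939, + strand): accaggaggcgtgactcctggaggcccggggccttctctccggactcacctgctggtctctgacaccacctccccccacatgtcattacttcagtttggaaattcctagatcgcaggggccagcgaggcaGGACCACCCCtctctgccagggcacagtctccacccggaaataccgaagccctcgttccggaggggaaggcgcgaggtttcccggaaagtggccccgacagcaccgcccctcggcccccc
Sele (chr1:164047984-164048233, + strand): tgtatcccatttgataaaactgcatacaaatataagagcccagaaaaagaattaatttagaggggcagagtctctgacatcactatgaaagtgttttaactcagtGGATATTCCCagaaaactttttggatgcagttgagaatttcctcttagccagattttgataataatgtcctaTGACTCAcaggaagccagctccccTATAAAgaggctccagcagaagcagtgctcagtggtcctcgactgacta

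Selp held the kappaB-type letters GGGAAAGGCC starting 15 bases before the start and an AP-1 match at 139 bases. Sele, also on chromosome 1, held GGATATTCCC at 145 bases, an AP-1 match at 73 bases and a TATA box match at 49 bases. Icam1 held GGACCACCCC at 120 bases. Esm1 held none of the 5 motifs, and neither did Ackr1 or Apln, while Cd34 held GGGGCTGGCC at 30 bases. Promoters were found for 7 of the 10 genes and not for Vcam1, Vwf and Plvap. Of all 32851 promoters in the RefSeq table, 45.8% held the kappaB-type letters in this window, 6.75% the AP-1 letters, 9.99% the GATA letters, 16.6% the hypoxia core and 12.4% the TATA letters. These matches describe letters only. The kappaB-type letters were in windows of genes that were dim throughout (Sele), bright throughout (Icam1) and bright on 1 array (Selp).

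The arrays held a single signal per probe set on a linear intensity scale, with the same mean of 150.0 on each array after trimming. Medians were 26.3 and 23.8 in VEGFD replicates 1 and 2, and 27.0 and 30.4 in Apex replicates 1 and 2. Genes entered the test when their mean of log2(signal + 16) reached the median over the non-control probe sets, equal to a signal of 25.3, which 11677 genes did. Apex replicate 2 stood apart in the markers of the labelled cell type. Pecam1 (CD31) had signals of 3.25 and 2.22 in VEGFD replicates 1 and 2, and 2.92 and 141 in Apex replicates 1 and 2. Cdh5, the gene of VE-cadherin, had 4.23 and 3.11 in VEGFD arrays, against 13.0 and 146 in Apex arrays, and Tie1 had 0.755 and 1.81 in VEGFD arrays against 0.626 and 33.4 in Apex arrays. These 3 genes thus lay below the filter signal on 3 of the 4 arrays. Over 16 measured pan-endothelial markers, 6 and 3 were above the filter signal in VEGFD replicates 1 and 2, and 6 and 16 in Apex replicates 1 and 2. Some did not follow Pecam1. Eng (endoglin) had 829 and 271 in VEGFD arrays against 417 and 765 in Apex arrays. Tek, an angiopoietin receptor gene, had 86.1 and 20.3 in VEGFD arrays against 101 and 43.9 in Apex arrays. Clec14a and Cldn5, chosen after their values were seen, were lower on both VEGFD arrays than on both Apex arrays. Clec14a had 16.1 and 17.6 in VEGFD arrays against 57.6 and 67.8 in Apex arrays. Cldn5 had 7.63 and 8.65 in VEGFD arrays against 30.3 and 32.6 in Apex arrays. Egfl7, a secreted endothelial protein gene, was above the filter signal on all 4 arrays but, like Pecam1, highest on Apex replicate 2. It had 35.9 and 56.8 in VEGFD arrays against 44.5 and 216 in Apex arrays. Prox1, the transcription factor gene that sets lymphatic identity, was dim on all, with 3.19 and 5.94 in VEGFD arrays and 11.2 and 11.6 in Apex arrays. Values of the 10 genes are given below without Apex replicate 2 where that array decides them.

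**Figure D1:**
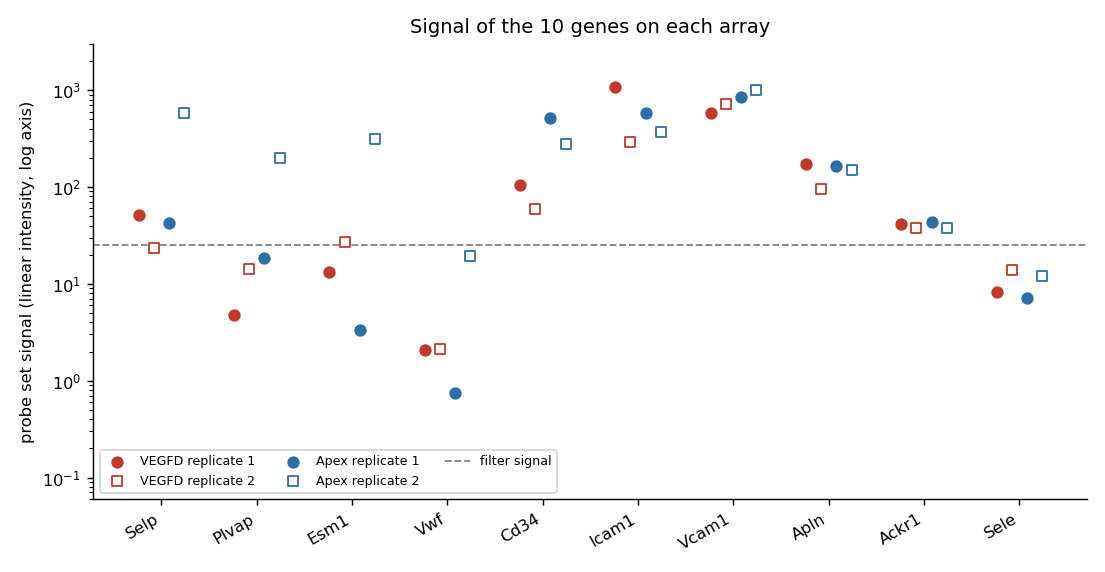
Probe set signal (linear intensity, log axis) of each gene on each array, with VEGFD in red and Apex in blue, replicate 1 filled and replicate 2 open; the dashed line is the filter signal of 25.3. Selp, Plvap, Esm1 and Vwf have 1 array, Apex replicate 2, far above the other 3, though every Vwf value is under the filter signal. The VEGFD values of Cd34 both lie under both Apex values.

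The main pattern among these genes was a high signal on a single Apex array, not a difference shared by both arrays of a group. Selp, Plvap and Esm1, 3 of the 10 genes, were on Apex replicate 2 at least 2-fold above each other array on the log2(signal + 16) scale, where 1.43% of all 18193 genes were. The highest signal was there for 5 of 10, against 33.4% of all genes. Cd34 had lower signal on both VEGFD arrays, Icam1 differed most between the 2 VEGFD arrays, and Vcam1, Apln, Ackr1 and Sele stayed within 2-fold over the 4 arrays. No gene of the set passed the test.

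The groups were tested against each other with limma over 11677 genes. Tests were two-sided, p-values were adjusted over those genes by the Benjamini-Hochberg method, and the threshold was 0.05. Each log2 change is the VEGFD mean less the Apex mean of log2(signal + 16), a scale that understates changes of dim genes, with the standard error (SE) of the fit and 2 arrays in each group. The filter kept 8 of the 10 genes. Plvap and Esm1 passed it through Apex replicate 2, while Sele and Vwf fell below it and have values from a fit with no filter. Of the tested genes of the set 0 passed, beside 0% of all tested genes, and without the filter the counts were 0 of 10 and 0%. At an unadjusted limma p under 0.05 there were 1 gene of the set, Cd34, and 666 of the tested genes. Over all 10 genes 8 were lower and 2 higher in VEGFD arrays, with a median log2 change of -0.47, beside 56.5% lower and a median of -0.053 over all genes. Without Apex replicate 2 it was 7 lower and 3 higher with a median of -0.15, beside 52.7% lower and a median of -0.020. With so few arrays the smallest p that exact permutation could give for any gene was 0.333.

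**Figure D2:**
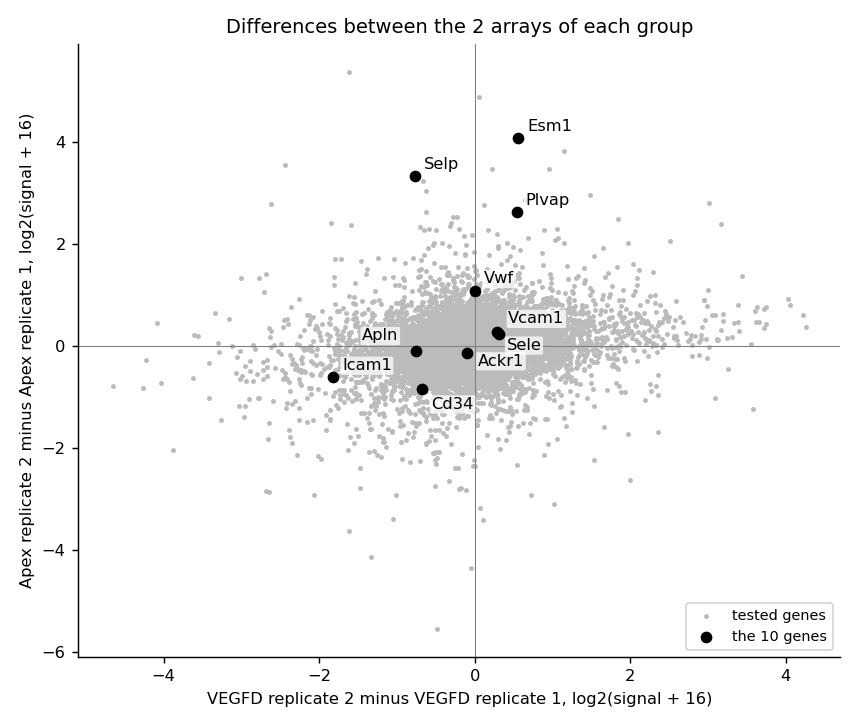
Difference between the arrays of each group for every tested gene (grey) and the 10 genes (black), on the log2(signal + 16) scale, with VEGFD replicate 2 minus 1 across and Apex replicate 2 minus 1 up. Esm1 (4.08), Selp (3.34) and Plvap (2.63) lie high on the Apex axis, and Icam1 lies at -1.82 on the VEGFD axis.

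Among the genes of leukocyte capture and of Weibel-Palade bodies, Selp had signals of 51.0 and 23.3 in VEGFD replicates 1 and 2, and 42.7 and 578 in Apex replicates 1 and 2. The groups overlapped, and Apex replicate 2 was 11.3 times the next highest array. The log2 change was -1.87 ± 1.08 (SE) with a limma adjusted p of 0.825 and a 95% interval from -4.58 to 0.85. Without Apex replicate 2 it was -0.20, and without Apex replicate 1 it was -3.53. The other probe sets of Selp, which are annotated to the same gene, had 1.77 and 8.91 in VEGFD arrays against 2.76 and 369 in Apex arrays for the brighter, and 2.89 and 1.43 in VEGFD arrays against 2.20 and 108 in Apex arrays for the dimmer. All 3 probe sets therefore had their highest signal on the same array.

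Vwf, the gene of the clotting protein that the same granules store, had 2.06 and 2.11 in VEGFD arrays against 0.740 and 19.6 in Apex arrays. Every value was under the filter signal, and Apex replicate 2 was 9.29 times the next highest array. Its log2 change without the filter was -0.43 ± 0.37, and 0.11 without Apex replicate 2. Sele, the E-selectin gene, had 8.28 and 13.8 in VEGFD arrays against 7.22 and 12.1 in Apex arrays. These values overlapped and stayed below the filter signal, also on Apex replicate 2, and the log2 change was 0.074 ± 0.23 with a 95% interval from -0.52 to 0.67. On Apex replicate 2 the signal of P-selectin was thus high while that of E-selectin was not above its level on VEGFD replicate 2.

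**Figure D3:**
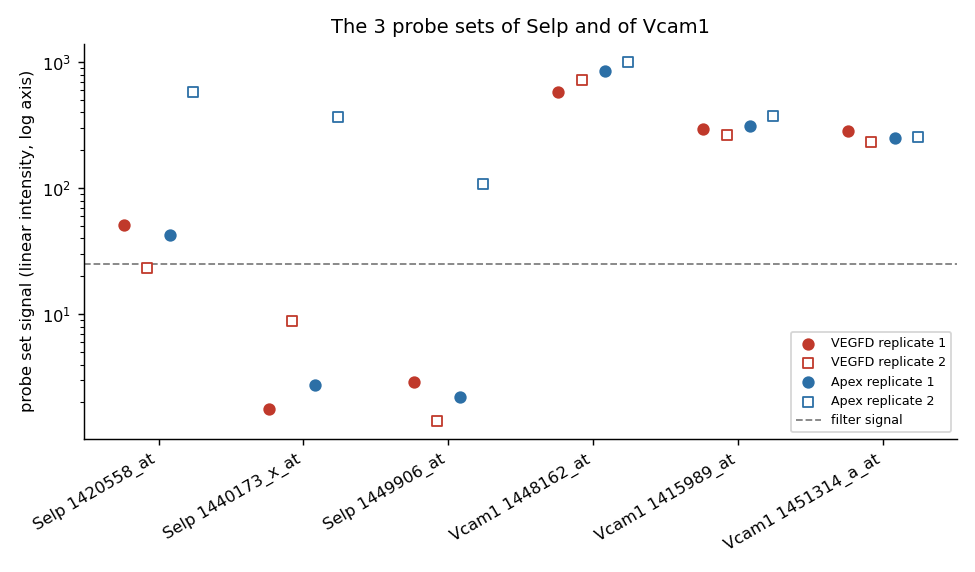
Signal (linear intensity, log axis) of the 3 probe sets of Selp and the 3 of Vcam1 on each array, VEGFD in red and Apex in blue, replicate 1 filled and replicate 2 open, with the filter signal of 25.3 dashed. Each Selp probe set has Apex replicate 2 on top, at 578, 369 and 108, whereas the Vcam1 probe sets do not order the arrays alike.

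Of the genes of capillary structure and growth, Plvap had 4.80 and 14.2 in VEGFD arrays, against 18.5 and 198 in Apex arrays. Both VEGFD values lay below both Apex values, but 3 of the 4 were under the filter signal and Apex replicate 2 was 10.7 times the next highest. The log2 change was -1.78 ± 0.86 (limma adjusted p = 0.823), with a 95% interval from -3.96 to 0.40. Without Apex replicate 2 it was -0.46. With a pseudocount of 64 it was -1.004.

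Esm1, which encodes the proteoglycan endocan, had 13.1 and 26.9 in VEGFD arrays, against 3.37 and 311 in Apex arrays. The Apex arrays held its lowest and its highest value. Of the tested genes 0.0428% differed more between the Apex arrays, against 0.128% for Selp and 0.3% for Plvap. Esm1 and Plvap were among the tested genes only through Apex replicate 2, so their shares describe size and support nothing further. The log2 change of -1.17 ± 1.29 (limma adjusted p = 0.862) turned to 0.87 without Apex replicate 2. Apln, the other tip cell gene, did not share this pattern: it had 172 and 95.7 in VEGFD arrays, against 164 and 151 in Apex arrays. Its log2 change was -0.26 ± 0.33 with a 95% interval from -1.08 to 0.57, and 0.12 without VEGFD replicate 2, the lowest array.

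Cd34 was the gene of the set with the smallest p. It had signals of 105 and 59.7 in VEGFD arrays against 515 and 279.9 in Apex arrays, so that both VEGFD values lay below both Apex values, with all 4 above the filter signal. The means were 82.1 ± 31.8 in VEGFD arrays and 397 ± 166 in Apex arrays (SD, n = 2 each). The log2 change was -2.05 ± 0.40 with a 95% interval from -3.06 to -1.04, an unadjusted limma p of 0.00305 and an adjusted p of 0.692. Unlike Selp, Plvap and Esm1, Cd34 had its highest signal on Apex replicate 1, and its change was -2.47 without Apex replicate 2. Leaving out Apex replicate 1 gave -1.63, leaving out VEGFD replicate 2 gave -1.72, and leaving out VEGFD replicate 1 gave -2.39. In that last fit Cd34 passed (limma adjusted p = 0.0275), as 3.19% of the tested genes did, with the lone VEGFD array assumed to vary like the others. Cd34 was measured by 1 probe set, so no other probe set checks it.

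Cd34 and Plvap were the 2 of 10 genes at least 2-fold lower without overlap in VEGFD arrays, beside 2.25% of all genes, and with Vcam1 there were 3 of 10 lower without overlap at any size, beside 22.6%. Without Apex replicate 2 Cd34 alone was 2-fold lower without overlap, beside 2.34% of all genes. Without Apex replicate 1 there were 4, Selp, Plvap, Esm1 and Cd34, beside 5.07%. In bulk samples fewer cells of a type and less RNA per cell cannot be told apart, which bears on Cd34 first and on every gene here.

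The genes of firm adhesion were above the filter on every array. Icam1 had 1070.2 and 291 in VEGFD arrays against 575 and 369.6 in Apex arrays, so the VEGFD arrays held both its highest and its lowest value. Only 3.09% of tested genes differed more between the VEGFD arrays. The log2 change was 0.27 ± 0.63 with a 95% interval from -1.30 to 1.85, and it changed sign with the array left out, at -0.64 without VEGFD replicate 1 and 1.19 without VEGFD replicate 2. Vcam1 had 579 and 725 in VEGFD arrays, against 855 and 1007 in Apex arrays. Its groups did not overlap, and the log2 change was -0.51 ± 0.24 (limma adjusted p = 0.823), with a 95% interval from -1.11 to 0.096. The next brightest probe set had 295 and 264 in VEGFD arrays against 311 and 377 in Apex arrays, with a log2 change of -0.28, and the dimmest had 285 and 233 in VEGFD arrays against 251 and 257 in Apex arrays, with 0.020. The probe sets of Vcam1 thus disagreed in size and, for the dimmest, in sign.

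Ackr1, the chemokine-binding receptor of venules, was the flattest gene of the set. It had 41.1 and 37.4 in VEGFD arrays against 43.1 and 37.7 in Apex arrays. The log2 change was -0.028 ± 0.27 with a 95% interval from -0.70 to 0.65, and it was 0.095 with arrays centred on their medians. Ackr1 had 1 probe set, with signals not far above the filter signal of 25.3, so a change of this gene could be missed. Its signal on Apex replicate 2 lay within the range of the other arrays, whereas that of Selp, which venules also express, lay far above it.

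**Figure D4:**
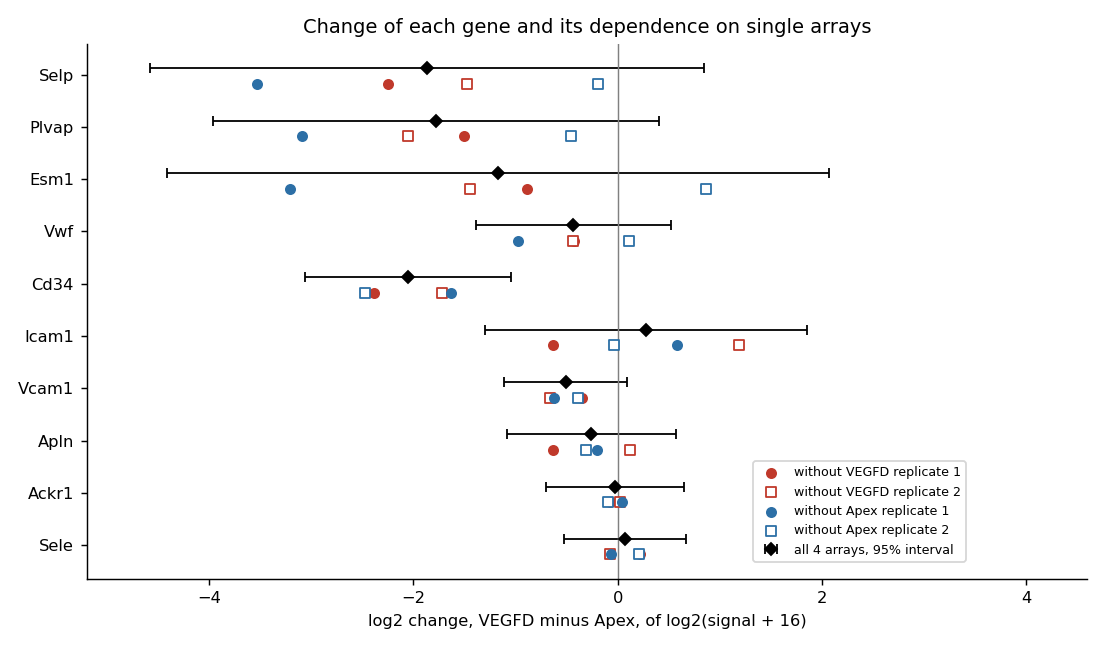
Log2 change (VEGFD minus Apex) of each gene on all 4 arrays (black, with its 95% interval, unadjusted) and with 1 array left out (coloured, no interval). For Selp, Plvap and Esm1 the value without Apex replicate 2 is -0.20, -0.46 and 0.87, while every value of Cd34 lies between -2.47 and -1.63.

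The partners of these molecules were read from lists of related genes, none of which had a member past the threshold in limma. Beside the counts of groups without overlap stands the share over all tested genes, 38.5%, and beside counts of 2-fold differences 1.09% higher and 2.79% lower. Of 7 tested selectin ligand genes and their glycosyltransferases, 3 were higher and 4 lower (median log2 change -0.040, beside -0.035 over all tested genes), and 2 did not overlap. Fut4, a fucosyltransferase that builds selectin ligands, had 0.83 ± 0.50, and 0.23 without Apex replicate 2. Cd24a, a P-selectin ligand on some cells, had -1.65 ± 0.63, and -0.70 without that array, with signals of 349 and 435 in VEGFD arrays against 642 and 2466 in Apex arrays. Selplg, the main P-selectin ligand of leukocytes, stayed under the filter signal with at most 19.0 on any array, and Podxl, a relative of CD34, had -0.040 ± 0.30.

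Of 8 measured integrin genes that bind ICAM-1, VCAM-1 or their relatives, 3 entered the test, 2 higher and 1 lower. Itgb1, the widely expressed beta 1 subunit, had 3323 and 3485 in VEGFD arrays, against 1968 and 1592 in Apex arrays, with a log2 change of 0.94 ± 0.22 (limma adjusted p = 0.782). Itgb7, a lymphocyte subunit, had -0.42 ± 0.48, and 0.25 without VEGFD replicate 1. The other genes of this list fell below the filter by their mean, and each was lower in the fit with no filter. Itgax (-0.78 ± 0.27) and the leukocyte subunit genes Itgb2 (-1.01 ± 0.29) and Itga4 (-1.28 ± 0.47) were lower without overlap, where 22.6% of all genes were. Without Apex replicate 2 the change of Itga4 was -0.65. Itgal (-0.39) and Itgam (-0.10) overlapped. Itgb2 had 14.3 and 8.85 in VEGFD arrays against 35.3 and 43.6 in Apex arrays, and Itga4 had 6.68 and 8.48 in VEGFD arrays against 21.1 and 72.4 in Apex arrays.

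Of 12 tested genes of other endothelial adhesion and junction proteins and their cytoskeletal linkers, 7 were higher and 5 lower (median 0.088), 4 did not overlap, and 1 was 2-fold higher. That was Ezr, whose product ezrin links ICAM-1 and VCAM-1 to actin, at 1.01 ± 0.44, and 0.41 without VEGFD replicate 2. Esam, an endothelial adhesion gene, was lowest at -0.93 ± 0.75 with signals of 26.7 and 21.1 in VEGFD arrays against 18.3 and 153 in Apex arrays. Without Apex replicate 2 the direction of Esam turned, to 0.21, and its mean over the other arrays was below the filter. The genes of this list below the filter are not in these counts. With no filter, Pecam1 (-1.54 ± 0.98), Cdh5 (-1.80 ± 0.81), Icam2 (-0.998 ± 0.60) and Icam4 (-0.54 ± 0.30) were lower and Mcam (1.02 ± 0.29) higher. Without Apex replicate 2 these changes were, in the same order, -0.015, -0.56, -0.10, -0.14 and 0.98. Of 16 tested genes of NF-kB, the factor that induces adhesion molecules under inflammatory signals, 5 were higher and 11 lower (median -0.25), 6 did not overlap, and 1, Tnfrsf1b, was 2-fold lower. Tnfaip3, a feedback inhibitor, had 0.36 ± 0.26, and Tnfrsf1b, a TNF receptor gene, had -1.09 ± 0.33. Nfkbia, another feedback inhibitor, had signals of 1474 and 1495 in VEGFD arrays against 1510.0 and 2596 in Apex arrays, and -0.41 ± 0.31, which was -0.024 without Apex replicate 2.

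Of 9 tested genes of Weibel-Palade bodies, 4 were higher and 5 lower (median -0.34), and 4 did not overlap. Edn1, the endothelin gene, was the 1 that was 2-fold lower, with 162 and 29.2 in VEGFD arrays against 231 and 252 in Apex arrays and a log2 change of -1.52 ± 0.65. Leaving out VEGFD replicate 2 gave -0.53 for Edn1. Sytl4, a granule docking gene, had 0.43 ± 0.33, and 0.091 without VEGFD replicate 2. Angpt2, a stored angiopoietin, had 42.6 and 33.1 in VEGFD arrays against 31.7 and 153 in Apex arrays, with its highest signal on the same array as Selp. Its log2 change of -0.74 ± 0.62 was 0.17 without that array. All 7 tested genes of caveolae were lower (median -0.32), 3 of them without overlap and 0 by 2-fold. Cav1 had 4427 and 4674 in VEGFD arrays against 5352 and 6062 in Apex arrays and -0.32 ± 0.20, Pacsin3 was lowest at -0.82 ± 0.71 (0.29 without VEGFD replicate 2) and Cavin3 highest at -0.026 ± 0.28.

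Of 14 tested tip cell and blood endothelial genes, 5 were higher and 9 lower (median -0.14), and 4 did not overlap. Plaur, the urokinase receptor gene, was 2-fold higher, with 116 and 579.5 in VEGFD arrays against 101 and 93.8 in Apex arrays, and its log2 change of 1.31 ± 0.70 was 0.22 without VEGFD replicate 2. Mmrn2, an endothelial matrix gene, had 5.85 and 32.3 in VEGFD arrays against 17.5 and 121 in Apex arrays. Its log2 change of -1.06 ± 0.76 was -0.044 without Apex replicate 2, and without that array its mean was below the filter. Esam and Mmrn2 are also among the pan-endothelial markers. Aplnr, the apelin receptor gene, was at most 9.56 on any array, again on Apex replicate 2. All 4 atypical chemokine receptor genes other than Ackr1 were lower (median -0.17) and none without overlap, between -0.11 ± 0.28 for Ccrl2 and -0.22 ± 0.31 for Ackr2. Ackr3, chosen after its values were seen, ordered the arrays as Icam1 did, with 1589 and 325 in VEGFD arrays against 939 and 669.9 in Apex arrays. Genes of other lists, among them Nfkbiz and Dcn, had this order too.

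Marker lists of cell types differed in whether they followed these patterns on single arrays. Of 16 measured pan-endothelial markers, 9 were at least 2-fold above each other array on Apex replicate 2 and 14 had their highest signal there. The summed signal of that list was 1197 and 530.4 in VEGFD arrays, against 809 and 4656 in Apex arrays. Single genes held most of some sums: Emcn (endomucin) gave 2670.4 of the sum on Apex replicate 2, and Eng 829 of that on VEGFD replicate 1. Lymphatic markers were 2-fold above on that array for 3 of 12, with sums of 2068 and 2795 in VEGFD arrays against 2135 and 3465 in Apex arrays. Lyve1, a hyaluronan receptor gene of lymphatic endothelium, had 22.0 and 14.5 in VEGFD arrays against 16.5 and 151 in Apex arrays, and Pdpn, the podoplanin gene, had 1237 and 1715 in VEGFD arrays against 963 and 1622 in Apex arrays. The pan-endothelial sum was highest on the array where Selp, Plvap, Esm1 and Vwf were highest, and its part in these results was not tested. The lymphatic sum was also highest there, with Pdpn as its largest single part on every array, and its part was likewise not tested. The 3 lymphatic markers at least 2-fold above on Apex replicate 2 were Lyve1, Stab1 and Tbx1. Stab1 had 3.30 and 21.4 in VEGFD arrays against 16.5 and 348 in Apex arrays. Tbx1 had 4.75 and 19.3 in VEGFD arrays against 4.25 and 106 in Apex arrays.

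The leukocyte and the platelet sums each stayed within 2-fold over the arrays. A single gene, Csf1r, held most of the leukocyte sum, with 335 and 558 in VEGFD arrays against 503 and 472 in Apex arrays. That sum therefore says little about the other leukocyte markers. Leukocyte markers were 2-fold above on Apex replicate 2 for 1 of 14, with sums of 638 and 793 in VEGFD arrays against 768 and 854 in Apex arrays, and 6 of 14 stayed below the filter signal on all arrays. Ptprc, which marks leukocytes as CD45, was at most 13.0 on any array, and Cd68, a macrophage gene, had 58.0 and 41.2 in VEGFD arrays against 49.4 and 30.6 in Apex arrays. Platelet markers were 2-fold above for 0 of 8, with sums of 229 and 251 in VEGFD arrays against 308 and 358 in Apex arrays. Pf4, a platelet chemokine gene, had 12.4 and 18.4 in VEGFD arrays against 21.2 and 49.8 in Apex arrays, and Itga2b, the platelet integrin gene, had 121 and 94.3 in VEGFD arrays against 124 and 139 in Apex arrays. Genes of haematopoietic progenitors and mast cells were 2-fold above for 0 of 7 and summed to 80.7 and 72.6 in VEGFD arrays against 103 and 124 in Apex arrays.

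Beside Cd34, 1 of 9 tested pan-endothelial markers, Clec14a, was lower without overlap in VEGFD arrays, where 22.6% of all genes were. Its log2 change was -1.26 ± 0.27, and -1.16 without Apex replicate 2. Of the pan-endothelial markers below the filter, Cdh5, Cldn5 and Icam2 were also lower without overlap. Their changes without Apex replicate 2 were -0.56, -0.94 and -0.10. The adipocyte markers also had lower sums in VEGFD arrays, 3858 and 3137, against 6409 and 8123 in Apex arrays. All 5 tested adipocyte markers were lower without overlap, beside 22.6% of all genes. Of the 8 measured, 5 had their highest signal on Apex replicate 2, beside 33.4% of all genes. Adipoq, the adiponectin gene, passed the filter through Apex replicate 2. It had 12.7 and 12.5 in VEGFD arrays against 38.3 and 145 in Apex arrays. Fibroblast markers were higher for 6 and lower for 4 of 10 tested, with sums of 38307 and 37018 in VEGFD arrays against 36997 and 38397 in Apex arrays, with Col1a2 at 6122 and 6623 in VEGFD arrays against 5555 and 6846 in Apex arrays and Col1a1 at 2034 and 3342 in VEGFD arrays against 2491 and 862 in Apex arrays. Dpt and Pi16, genes of connective tissue fibroblasts that often carry CD34, were chosen after their values were seen. Dpt had 204 and 168 in VEGFD arrays against 2725 and 2407 in Apex arrays, and Pi16 had 5.17 and 3.40 in VEGFD arrays against 55.9 and 11.2 in Apex arrays. Other genes of the same list went the other way without overlap: Mfap5, a microfibril gene of such fibroblasts, had 5741 and 5476 in VEGFD arrays against 4144 and 2366 in Apex arrays, and Lum (lumican) had 25.5 and 22.7 in VEGFD arrays against 12.4 and 15.2 in Apex arrays. Of 9 tested markers of smooth muscle and pericytes, 5 were higher and 4 lower, and 6 did not overlap, beside 38.5% of all tested genes. Tagln (2.34) and Myl9 (1.97) were 2-fold higher without overlap, beside 1.09%, and Des (-1.33) and Notch3 (-1.17) 2-fold lower, beside 2.79%. The list summed to 9503 and 18656 in VEGFD arrays against 7755 and 9112 in Apex arrays. That sum was highest on VEGFD replicate 2, where Icam1 was lowest. Acta2, the smooth muscle actin gene, had 4840 and 8802 in VEGFD arrays against 3525 and 4096 in Apex arrays. Epithelial markers were higher for 2 and lower for 6 of 8 tested, with sums of 1181.0 and 664 in VEGFD arrays against 1015 and 1738 in Apex arrays, and single markers differed in direction. Krt7, a keratin gene of simple epithelia, had 323 and 403 in VEGFD arrays against 78.9 and 107 in Apex arrays, and Dsp (desmoplakin) had 56.8 and 10.03 in VEGFD arrays against 169 and 212 in Apex arrays. Msln (mesothelin) had 197 and 17.4 in VEGFD arrays against 235 and 656 in Apex arrays, and Krt14 was at most 14.3 on any array. The part of these cell types in the results was not tested.

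**Figure D5:**
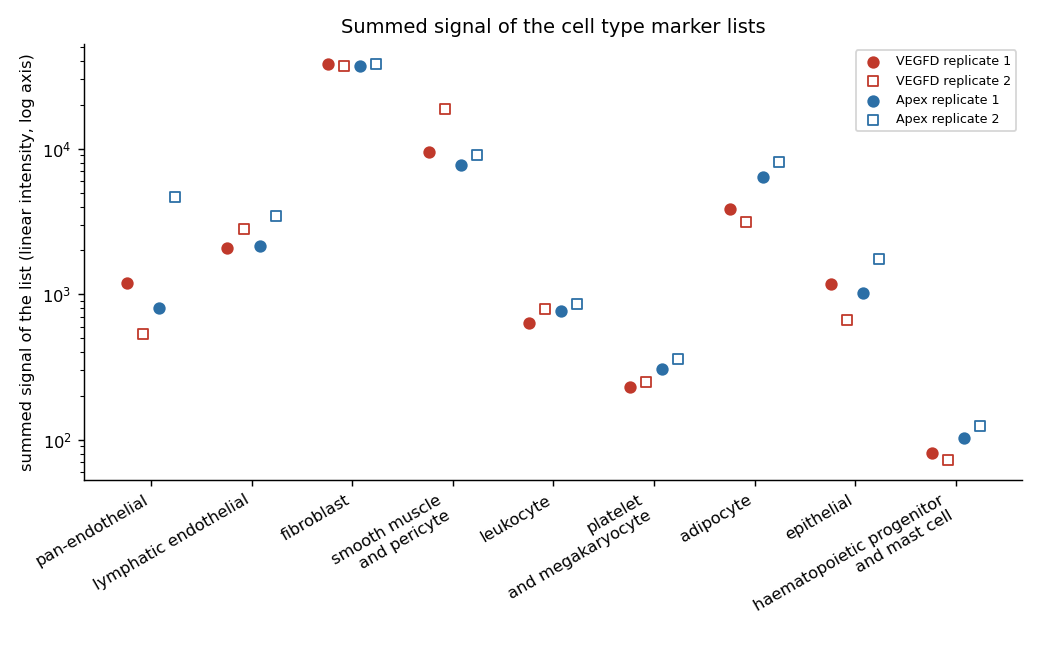
Summed probe set signal (linear intensity, log axis) of each cell type marker list on each array, VEGFD in red and Apex in blue, replicate 1 filled and replicate 2 open. The pan-endothelial sum is 4656 on Apex replicate 2 and at most 1197 on the others, while the fibroblast sums lie between 36997 and 38397.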

How the data were processed

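RNA of 4 samples, 2 in each group by their titles, was measured on Affymetrix mouse arrays. The authors deposited 1 linear intensity per probe set, made with software not given in the sources used here. The values showed an equal mean of 150.0 on each array once 2% of probe sets at each end were trimmed. Of 45101 probe sets, 64 were controls, 34945 had a single gene symbol in the platform annotation and 932 had several. Each gene took its brightest single-gene probe set, as log2(signal + 16), and 11677 of 18193 genes passed the filter. Models were fitted with limma 3.58.1 under R 4.3.3, using lmFit and a trended eBayes. A simulation with independent noise checked only that median estimates came near known changes. It did not check the calls, and no simulated array deviated over many genes together. All 10 genes are named, with the highest and lowest tested gene of each pathway list, listed partners and defining markers. The members and lists were chosen with earlier results of these data known, and no list is independent support. Alternatives covered scaling, pseudocount, filter, probe sets, the trend, the replicate number and each array left out. The array's genome build is likewise unstated, and coordinates are those of the RefSeq promoters.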

Additional observations from a re-analysis of the deposited data

How the results depend on the processing

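Precision is limited by 2 arrays in each group, and no detection calls were used. The count of genes of the set that passed stayed at 0 in the 10 settings that kept all 4 arrays, and ran from 0 to 1 with 1 array left out, the 1 being Cd34 without VEGFD replicate 1. The count over all tested genes was 6 with the replicate number as a block, and 0 to 372 with 1 array left out. Same-numbered arrays deviated together with a correlation of 0.197 across 11677 genes, the labels do not say that they pair, and the block changed no call in the set, with Cd34 at an adjusted p of 0.120 in limma. The count at least 2-fold apart without overlap was 2 on all arrays, beside 1.09% higher and 2.79% lower of all tested genes. It was 1 (Cd34) with a pseudocount of 1 and 1 with a filter at the upper quartile, where Selp and Plvap were not tested. With 1 array left out it was 1 to 4, beside 3.79% to 11.5% of all tested genes. Of 93 log2 changes of the 10 genes under other settings, 2 changed sign, both of Ackr1: 0.095 after centring each array on its median and 0.092 after quantile normalization. Of 40 with 1 array left out, 9 changed sign, in ranges of -0.073 to 0.22 for Sele, -0.64 to 1.19 for Icam1, -0.098 to 0.041 for Ackr1, -0.63 to 0.12 for Apln, -0.98 to 0.11 for Vwf and -3.21 to 0.87 for Esm1. Selp ran from -3.53 to -0.20, Plvap from -3.09 to -0.46, Vcam1 from -0.67 to -0.35 and Cd34 from -2.47 to -1.63. At their brightest probe set these 4 kept their sign in every setting that gave a value, but Plvap gave none with a pseudocount of 1, and Selp and Plvap none with a filter at the upper quartile, being below the filter. The cause of these shifts was not tested.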
